A study of Mus musculus with 4 samples.

Results

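Integrins are the transmembrane receptors, each an alpha and a beta subunit, through which cells hold on to the extracellular matrix and to other cells. Laminins are trimers of an alpha, a beta and a gamma chain that polymerise into the sheet of the basement membrane, and several integrins bind them. In skin the pair meets at the hemidesmosome, where integrin alpha6 beta4 anchors basal keratinocytes to laminin, while the beta2 and beta7 integrins serve leukocyte adhesion and the alphav integrins bind fibronectin, vitronectin and osteopontin. The genes described here were all those whose symbol follows the integrin alpha, integrin beta or laminin chain pattern. There were 36 of them among 33696 annotated genes: 17 integrin alpha subunits, 8 integrin beta subunits and 11 laminin chains (5 alpha, 3 beta, 3 gamma). The pattern does not match the symbol Itga2b, so that alpha subunit is left out.

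The data were 4 single-cell RNA libraries labelled as the terminal digit segment (P3) of female mice aged 6 to 8 weeks, labelled C57BL/6 (C57BL/6J in the methods of the study), each made from the pooled hind limb digits of 10 mice. By the account of the study, digit tips had been amputated and were healing in every condition; the labels give no time after amputation and the other sources differ on it. The digits were cut off at the middle phalanx by the protocol, so the tissue could reach beyond P3. In the diet experiment, mice received chow with 30 mg/kg of SAR131675, an inhibitor of the lymphatic receptor VEGFR3, or control chow without it. The design text gives 8 days of this chow, while by the methods it began before amputation and went on afterwards. In the surgery experiment the inguinal and popliteal lymph nodes were removed (LNR), and the comparison library, here called sham, is labelled as an untreated control (the contralateral limb by the methods of the study). Each condition was 1 library with its own batch number, so no comparison has a replicate check, library and condition cannot be told apart, and every interval below covers counting error only.

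After filtering, 29076 SAR131675, 24030 control diet, 19827 LNR and 20669 sham cells remained, with median depths of 11316, 10712, 5725 and 5851 unique molecules (UMIs). The libraries of the diet experiment shared 348 cell barcodes and those of the surgery experiment 130, while libraries of different experiments shared 3 at most. Cells were clustered within each experiment without the integrin and laminin genes, and 25 classes with at least 30 cells in every library could be named from markers. Each comparison ran over the classes with at least 30 cells in both of its libraries, which added B lineage and erythroid cells in the diet experiment and dendritic cells, mast cells and hair shaft or nail plate in the surgery experiment. Few integrin or laminin genes could be tested in these, 1 in B lineage, 4 in dendritic cells and 1 in mast cells, and none passed the limit. Over all genes, 16 were higher and 65 lower of 752 in B lineage, 26 and 20 of 1083 in dendritic cells, and 71 and 30 of 1257 in mast cells. In erythroid cells and hair shaft or nail plate no integrin or laminin gene had enough UMIs to be tested. In the surgery experiment, 1 cluster of 393 cells held 388 sham cells and only 5 LNR cells, and it stayed without a name and outside every class value. Between 30.3% and 34.5% of the cells of a library lay in clusters without a name. Levels are given as CPM, the UMIs of a gene scaled to a fixed total of UMIs of the class, which are not corrected for gene length. They are therefore compared between cell classes and not between genes, and the few shares of laminin chains below describe UMIs only.

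All 36 genes had a UMI in each library. Itgad, a leukocyte alpha subunit, had only 24 UMIs in all and Lama1, a laminin alpha chain of embryonic basement membranes, 41, and neither is described further. For the other 34, the map of levels by cell class showed a division by tissue compartment, which some genes crossed. The class with the highest mean was also the highest in every library for 22 genes, and for 5 genes (Itga9, Itga11, Itgae, Itgb6 and Itgb8) it stood at least 2-fold above every other class in all 4 libraries. The same counts were not made over all genes, so whether 22 and 5 are many or few is not known.

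**Figure D1:**
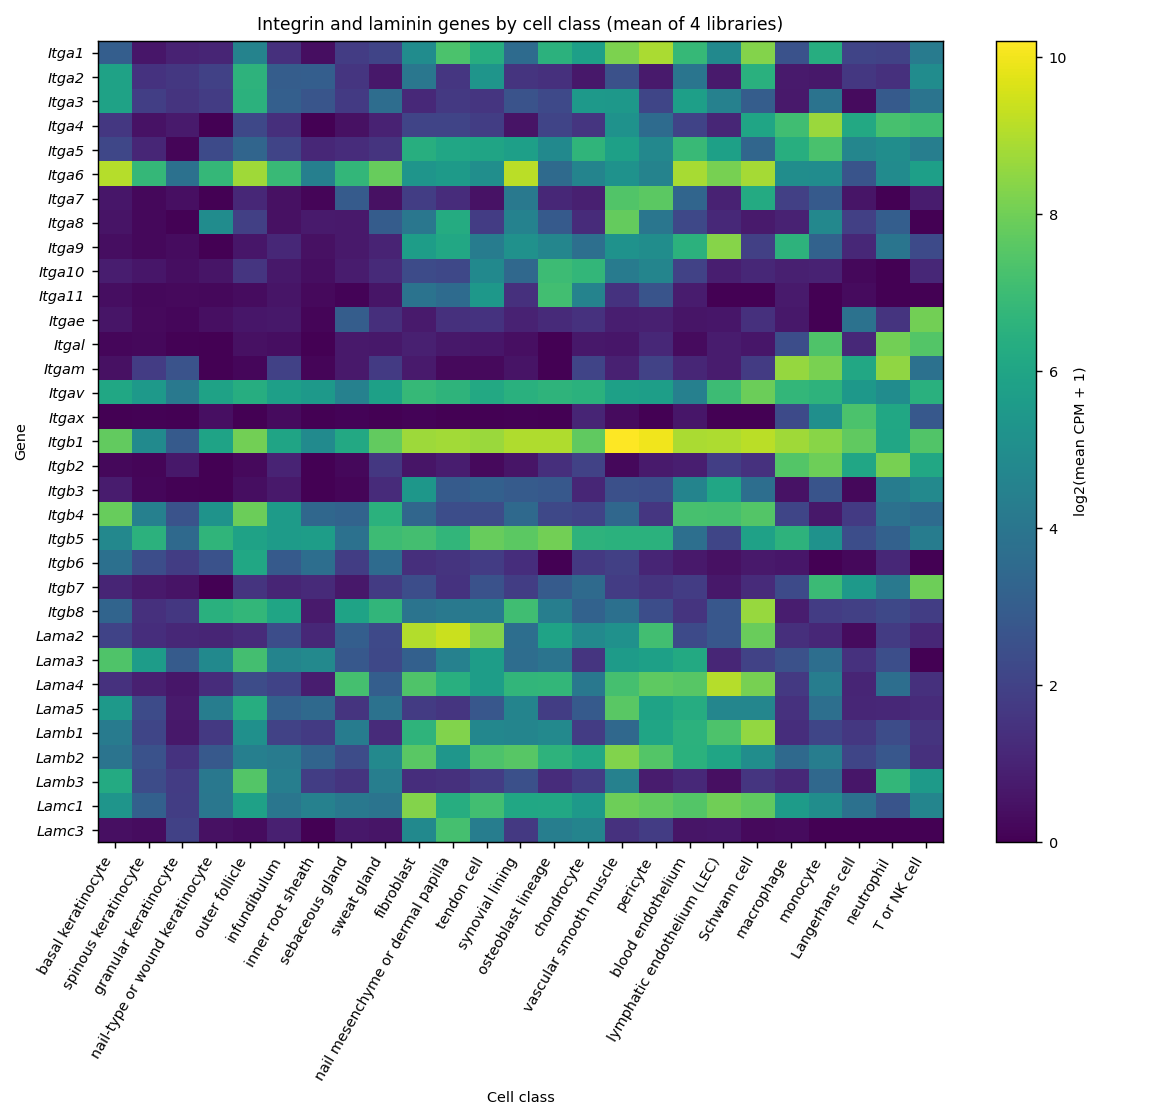
Mean level over the 4 libraries of 33 genes with at least 500 UMIs (rows) in the 25 cell classes (columns), as log2(mean CPM + 1). Leukocyte integrins are bright in the 5 immune columns at the right, and the keratinocyte columns at the left hold Itga6, Itgb4, Lama3 and Lamb3. These are not confined to keratinocytes: Itga6 has its highest mean in synovial lining (576 CPM), and Lamb3 is at a mean of 107.5 CPM in neutrophils. Itgb4 is at 178 CPM in Schwann cells and Lama3 at 72.3 CPM in blood endothelium.

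The subunits of the laminin receptor of the hemidesmosome were high in the keratinocytes that touch the basement membrane. Itga6 was at 779 CPM in SAR131675, 832 in control diet, 289 in LNR and 280 in sham basal keratinocytes. In spinous keratinocytes, which have left the membrane, it was at 157, 162, 61.1 and 65.4 CPM, and in granular keratinocytes at 9.68, 14.6, 15.6 and 12.7 CPM. The 3 layers did not overlap in any library.

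Itgb4, its partner, was at 236, 325, 171 and 168 CPM in basal keratinocytes, in the same library order, against 19.0, 24.8, 20.9 and 19.6 CPM in spinous keratinocytes. The outer follicle, the epithelium that sheathes the hair, held 192, 262, 255 and 250 CPM. Among the 25 classes, Itgb4 was therefore highest in basal cells in the diet experiment and in the outer follicle in the surgery experiment. The gene was not confined to epithelium: blood endothelium held between 136 and 162 CPM and Schwann cells, which wrap axons, between 148 and 201 CPM. Within the fibroblast class of the diet experiment, the highest of 12 clusters was at 546.5 CPM.

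Itga6 had a second peak in the synovial lining, at 640, 771, 418 and 474 CPM, where Itgb4 was at 2.16 and 1.6 CPM in the diet libraries and at 18.2 and 19.2 CPM, close to spinous keratinocytes, in LNR and sham. Synovial lining was thus near or above basal keratinocytes in Itga6 and far below them in Itgb4 in each library.

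Several epidermal collagen and laminin receptor genes had their highest mean in the outer follicle. Itga2, a collagen-binding subunit, was at 105, 133, 75.3 and 70.1 CPM in the outer follicle, and Itga3, a laminin-binding subunit, at 99.1, 132, 68.1 and 77.4 CPM. Itgb6, the epithelial partner of alphav that activates TGF-beta, was at 96.8, 77.2, 43.6 and 49.7 CPM there. For Itga2 the outer follicle led in 2 of 4 libraries only, with Schwann cells next at a mean of 88.2 CPM. The next class for Itgb6, basal keratinocytes, averaged 12.55 CPM.

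Lama3 and Lamb3, laminin chains of the epidermal basement membrane, had their highest means in epithelium. Lamb3 was at 119.9, 159.5, 200.5 and 236 CPM in the outer follicle. Lama3 was at 263 and 323 CPM in basal keratinocytes of the diet experiment but at only 38.1 and 38.4 CPM in those of the surgery experiment, and at 179.5, 222.8, 82.1 and 84.7 CPM in the outer follicle, which led in the surgery libraries. The outer follicle also led for Lamb3 in the surgery experiment and neutrophils held 143 and 259 CPM of it in the diet experiment.

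Vascular mural cells, the contractile cells around vessels, carried the collagen and laminin receptors of muscle. Itga1, which pairs with beta1 to bind collagen, was at 584, 574, 391 and 389 CPM in pericytes, above every other class in each library. Itga7, the muscle laminin receptor subunit, was at 224, 237, 166 and 159 CPM in pericytes and at 186, 201, 156 and 144 CPM in vascular smooth muscle, so these neighbours lay close together.

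Itga8, which binds nephronectin, was at 254, 291, 175 and 168.5 CPM in vascular smooth muscle. Pericytes, which share Itga1 and Itga7 with these cells, held only 5.76, 11.3, 18.7 and 23.8 CPM of it. Itgb1, the common beta subunit of most matrix receptors, peaked in vascular smooth muscle at 1359, 1415, 959 and 1004 CPM.

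Among laminins, vascular smooth muscle led for Lama5 at 169, 179, 221 and 210 CPM and for Lamb2 at 215, 242, 408 and 377 CPM. Both chains are parts of the laminins of mature vessel walls. Lamb2 held most of the beta chain UMIs of these cells, 85.7% in SAR131675 and 95.6% in sham. These libraries belong to different experiments, and the shares are not corrected for gene length.

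Lymphatic endothelium, the cell type whose receptor SAR131675 blocks, led for 3 genes in each library. Itga9, which pairs with beta1 and is needed for lymphatic valves, was at 478 CPM in SAR131675, 424 in control diet, 188 in LNR and 201 in sham, and the best other class was at least 2.84-fold lower in each library. Lama4, the endothelial laminin alpha chain, was at 821, 819, 235 and 259 CPM, with Schwann cells next at a mean of 275 CPM and pericytes at 202 CPM. Itgb3, the alphav partner known from osteoclasts, was at 78.2, 94.3, 40.4 and 45.6 CPM, with fibroblasts next at a mean of 41.5 CPM.

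Between conditions these genes lay close together in lymphatic endothelium: the log2 ratio of SAR131675 over control diet was 0.17 for Itga9 (exact 95% interval 0.0055 to 0.34), 0.0024 for Lama4 (-0.12 to 0.13) and -0.27 for Itgb3 (-0.66 to 0.12). For LNR over sham it was -0.10 for Itga9 (-0.43 to 0.23) and -0.14 for Lama4 (-0.43 to 0.15). Lama4 made up 95% of the laminin alpha chain UMIs there in SAR131675 and 95.5% in sham. In blood endothelium its share was 54.9% and 53.9%, followed by Lama3 in SAR131675 (26.6%) and by Lama5 in sham (36.3%). These shares are not corrected for gene length, and the 2 libraries belong to different experiments. Between the experiments Lama4 was 3.35-fold apart in blood endothelium and Lama5 1.54-fold, so the shares of SAR131675 and sham are not set against each other.

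Schwann cells led for 3 genes. Itgb8, an alphav partner that activates TGF-beta, was at 582, 460, 204 and 355 CPM, Itgav itself at 306.5, 313, 167 and 180.5 CPM, and Lamb1 at 413, 494, 284 and 317 CPM. For Itgb8 the LNR value was the lowest of the 4, from 33 UMIs in 104 cells against 57 UMIs in 117 sham cells.

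The skeletal and connective tissue classes carried their own set. Itga11, a collagen receptor of fibroblastic and bone-forming cells, was at 165, 216, 88.5 and 89.5 CPM in the osteoblast lineage, at least 2.75-fold above any other class. Itga10, the cartilage collagen receptor, was at 95.7, 121, 141 and 148 CPM in the osteoblast lineage, with chondrocytes close behind at a mean of 107 CPM. Itgb5, a vitronectin receptor subunit, was at 300.3, 289, 215 and 247 CPM in the osteoblast lineage, with tendon cells next at a mean of 226 CPM.

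Fibroblasts held the most Lamc1, the common gamma chain, at 374, 428, 234 and 231 CPM. The class named nail mesenchyme or dermal papilla, here nail or papilla mesenchyme, had the highest mean for Lama2, the muscle and nerve laminin chain, at 1135, 1341, 167 and 56.1 CPM, and for Lamc3 at 187, 292, 60.7 and 38.1 CPM. In the surgery experiment this class held 62 LNR and 64 sham cells only, and fibroblasts were higher than it in Lama2, at 183 CPM in LNR and 176 in sham. Its own markers differed between the experiments, with Bmp5 at 3.67 and 0 CPM in the diet libraries against 154 and 209 in the surgery libraries and Corin at 494 and 534 against 30.3 and 119, so the class may not hold the same cells in both.

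Leukocyte integrins were divided by lineage. Itgae, which with beta7 binds E-cadherin on epithelium, was at 281, 257, 223 and 299.7 CPM in T or NK cells. It was at least 8.97-fold lower in every other of the 25 classes, and T or NK cells held 23.1% of all its UMIs. Itgb7, the partner of Itgae, was at 219.7, 314, 226 and 223 CPM in the same cells, which held 10.1% of all its UMIs. Itga4, the partner of beta1 or beta7 that binds VCAM-1, was highest in monocytes at 467, 459.8, 376 and 313 CPM.

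Itgam, the alpha subunit of the complement receptor CR3, was at 407, 416.5, 354 and 359.8 CPM in macrophages, close to a mean of 367 CPM in neutrophils, and 57.0% of all its UMIs lay in that class. Among the 25 classes, which leave out dendritic cells, Itgax, also called CD11c, was highest in Langerhans cells, at 139, 196, 157 and 137.5 CPM. Langerhans cells are the resident antigen-presenting cells of epidermis. Itgal, of the lymphocyte receptor LFA-1, and Itgb2, the beta subunit common to these 3, had their highest means in neutrophils, at 182 to 325 and 207 to 368 CPM, and led there in 3 of 4 libraries each. Itga5, the fibronectin receptor, had no stable leader: it was at 116, 354, 53.0 and 89.5 CPM in monocytes and averaged 119 CPM in blood endothelium.

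**Figure D2:**
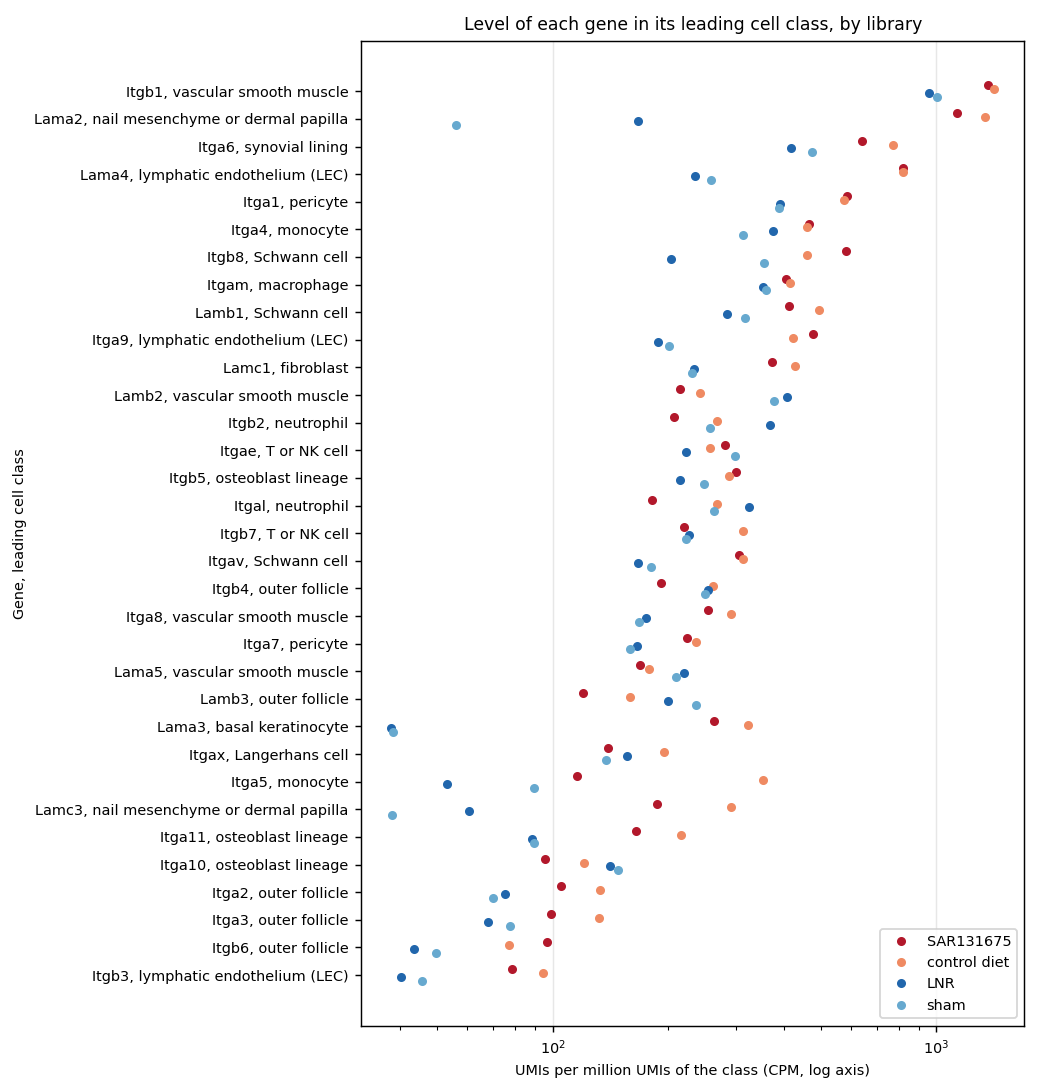
Level of each of 33 genes in its leading cell class, 1 point per library, in CPM on a log axis. The 4 points lie close together for Itgae (223 to 300 CPM) and far apart for Lama2 (56.1 to 1341 CPM) and Lama3 (38.1 to 323 CPM), where the surgery libraries are the low ones.

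Itgam and Itgax had an upstream sequence in the RefSeq table (build GRCm38.p6, chromosome 7, plus strand). It is shown because, among the 25 classes, both genes were low outside the 5 immune ones (at most a mean of 5.12 CPM for Itgam, in granular keratinocytes, and 1.08 CPM for Itgax, in chondrocytes). Dendritic cells, mast cells, B lineage and cells without a name are not among the 25 classes. The last 120 bases before each start are given 5′ to 3′, with capitals at GAGGAA or its reverse complement TTCCTC, the core bound by the myeloid factor PU.1.
Itgam: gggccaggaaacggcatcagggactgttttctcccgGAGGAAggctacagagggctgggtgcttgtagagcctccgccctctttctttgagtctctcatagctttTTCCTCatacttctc
Itgax: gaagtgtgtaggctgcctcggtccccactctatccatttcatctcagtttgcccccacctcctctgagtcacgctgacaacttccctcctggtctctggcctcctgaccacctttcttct
Itgam held 2 matches and Itgax none, and 12 of the 25 windows of the integrin and laminin genes held at least 1 in their full 250 bases, beside 23.3% of all 32851 windows. A match is a description of the letters and not a site. The RefSeq table matched 22 of the 36 genes, in 25 windows.

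Osteoclasts, for which integrin alphav beta3 is the textbook adhesion receptor, formed no class. Counting as osteoclast-marked any cell in which 4 or more of 7 osteoclast markers were detected gave 5, 3, 4 and 10 cells in SAR131675, control diet, LNR and sham. They held 28, 11, 14 and 30 UMIs of Itgav but only 1, 1, 0 and 0 of Itgb3, so at this number of cells a level of Itgb3 in osteoclasts was not measurable.

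The share of cells in which every subunit of 1 receptor was detected was taken after thinning cells to 1500 UMIs, since depth sets such shares. The share expected from the level of each subunit alone was not computed. These shares therefore cannot tell joint expression from high levels of both subunits in a class. Itga1 and Itgb1 were found together in 41.7% of pericytes in SAR131675 (exact binomial 95% interval 34.6% to 49.0%), 46.8% in control diet (38.8% to 54.9%), 30.1% in LNR (22.6% to 38.6%) and 23.2% in sham (16.1% to 31.6%). Of the 27 combinations examined this was the one above 20% in all 4 libraries. The lowest class at the same depth, picked for having the lowest mean share, was sweat gland, where it was seen in 0 of 135, 117, 41 and 31 cells, which allows shares of up to 2.70%, 3.10%, 8.6% and 11.2%. These were the cells deep enough to thin, of 319, 244, 72 and 64 in the class, so the limits concern detection at that depth. Without thinning the pair was seen in 1.57%, 0.41%, 1.39% and 0% of sweat gland cells and in 83.5%, 85.6%, 49% and 43.3% of pericytes.

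Itga6 with Itgb4 was found in 20.7%, 27.5%, 9.4% and 9% of basal keratinocytes at that depth, and in 85.4%, 89.6%, 61.9% and 59.0% without thinning. Thinned tendon cells, picked in the same way, had it in 0 of 38, 56, 341 and 354, which allows up to 9.25%, 6.38%, 1.08% and 1.04%, and in 2.63%, 0%, 0.27% and 0.253% without thinning. Itgae with Itgb7 was found in 11.1%, 12.5%, 9.76% and 12.1% of T or NK cells, and in 0 of 126, 98, 69 and 111 thinned Langerhans cells. Without thinning it was found in 38.3%, 49.3%, 12.7% and 13.8% of T or NK cells and in 2.33%, 7.48%, 0% and 0% of Langerhans cells.

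**Figure D3:**
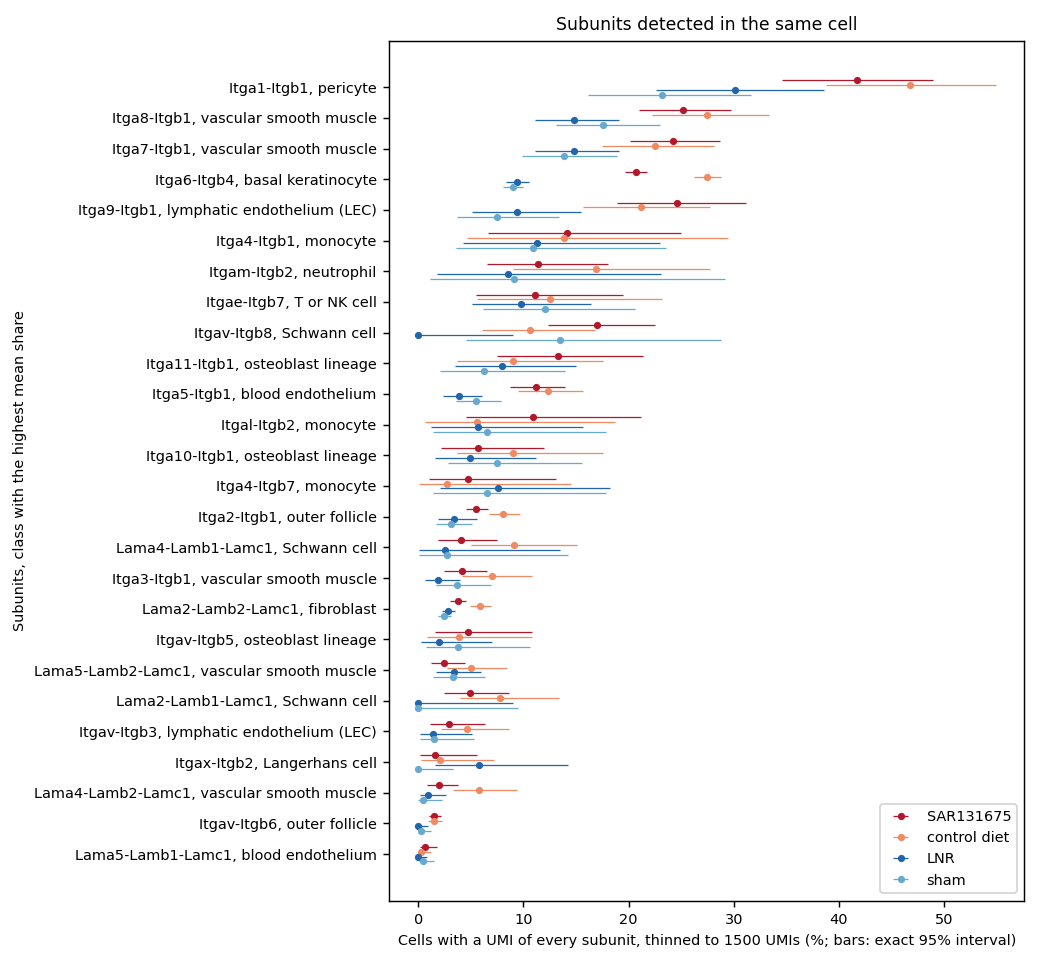
Share of cells with a UMI of every subunit after thinning to 1500 UMIs, for 26 receptors and laminins in the class with the highest mean share, by library; bars are exact binomial 95% intervals. Itga1-Itgb1 in pericytes is highest, between 23.2% and 46.8%, and the laminin trimers are all under 10%.

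The first comparison asked what SAR131675 changed. A gene in a class was counted as past the limit when it differed by at least 1.5-fold, its interval did not include 0 and both libraries together held at least 100 UMIs. Of 300 gene and class pairs tested, 12 were higher and 20 lower in SAR131675, which is 10.7%. The same rule called 5.04% of the 152536 pairs over all genes, 2.34% as higher and 2.7% as lower. The difference between these shares was not tested.

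How a cell class is drawn decided many of these calls. Each pair was recomputed under 7 other definitions of class or scale, and 6 of the 32 were past the limit the same way in every one. The same count was not made for pairs over all genes, so whether 6 of 32 is many or few is not known. Under the definition with each library clustered alone, 65 of 308 pairs (21.1%) were past the limit, beside 8.63% over all genes, and with all kept cells as 1 class 0 of 34 genes were, against 4.95% of all genes.

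The 6 pairs were spread over 5 classes. Lama3 was at 5.73 CPM in SAR131675 and 17.8 in control diet granular keratinocytes (log2 ratio -1.63, exact interval -2.27 to -1.03; -1.86 to -0.72 over the other definitions), and at 59.0 against 23.0 CPM in nail-type or wound keratinocytes (log2 ratio 1.36, 0.62 to 2.18). The same chain thus differed in opposite directions in these keratinocyte classes, from 29 and 117 UMIs in the first and 89 and 18 in the second. The nail-type class held 92 and 47 cells, and of its own markers Krt42 was at 1518 against 636 CPM and Krt6b at 2377 against 4075. The part of these markers in the result was not tested. In granular keratinocytes Itga6 was lower too, at 9.68 against 14.6 CPM, and Itgb4 had 10 and 41 UMIs, too few to be tested. In granular keratinocytes the summed nail-type keratinocyte markers were at 329.6 against 42.9 CPM, and their part in the result was not tested. Itga4 was at 258 against 127 CPM in T or NK cells (log2 ratio 1.02, 0.52 to 1.55), from 94 and 67 cells, and its ratio ran from 0.65 to 1.80 over the other definitions. Its level differed widely within that class, at 4.96 and 735 CPM in its 2 subclusters of at least 50 cells, and Itgb1 was at 264 against 189 CPM and Itgb7 at 219.7 against 314 CPM; the part of the mix of subclusters in the result was not tested.

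Itga5, the fibronectin receptor subunit, was at 57.8 against 106 CPM in vascular smooth muscle (log2 ratio -0.88, -1.16 to -0.59), from 191 and 233 UMIs. Lamb3 was at 23.9 against 39.1 CPM in the same cells (log2 ratio -0.71, -1.17 to -0.25, and from -1.52 to -0.63 over the other definitions), and at 143 against 259 CPM in neutrophils (log2 ratio -0.86, -1.43 to -0.28). Within vascular smooth muscle of the diet experiment Lamb3 ran from 0 to 301 CPM over 5 subclusters, and the highest, of 57 cells, also held the most Itgb4 (128 CPM) and Itgb6 (46.4 CPM); its part in the result was not tested. Lamb3 is an epithelial chain, and its level in neutrophils was 14.1 and 13.5 CPM in LNR and sham. The neutrophil markers differed between the experiments too, with S100a8 at 8556 and 9750 CPM in the diet libraries and 63350 and 58710 in the surgery libraries. In neutrophils the summed basal keratinocyte markers were at 565 CPM in SAR131675 and 235 in control diet and the Schwann cell markers at 107.5 and 648, and their part in the result was not tested.

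**Figure D4:**
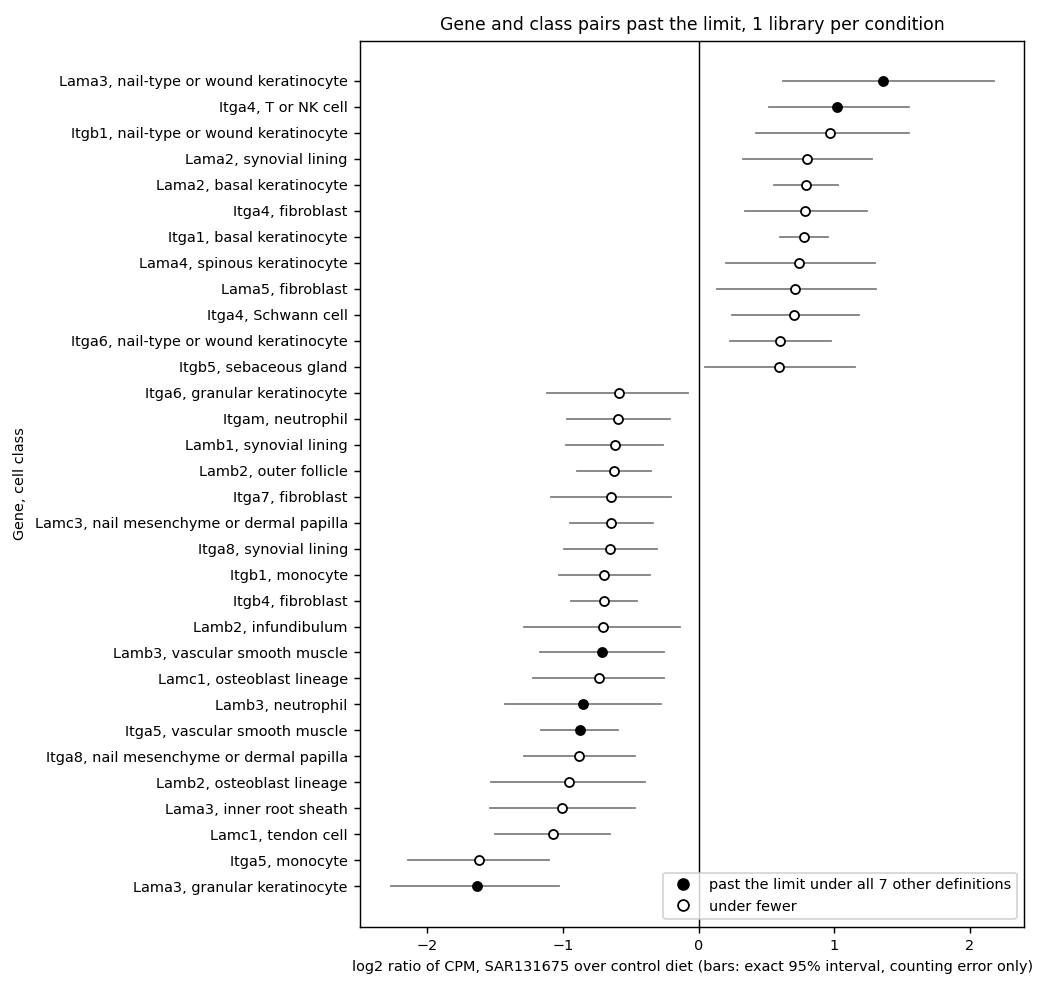
The 32 gene and class pairs past the limit between SAR131675 and control diet, as log2 ratio of CPM with exact 95% intervals that cover counting error only. The 6 filled points were past the limit under all 7 other definitions of class or scale, from -1.63 (Lama3, granular keratinocytes) to 1.36 (Lama3, nail-type or wound keratinocytes).

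The other 26 pairs were past the limit under 2 to 6 of the 7 definitions. Higher in SAR131675 were Itgb1 (log2 ratio 0.97) and Itga6 (0.60) in nail-type or wound keratinocytes, the 92 and 47 cells whose markers differed as described above. So were Lama2 in synovial lining (0.80) and basal keratinocytes (0.79), Itga4 in fibroblasts (0.79) and Schwann cells (0.70), and Itga1 in basal keratinocytes (0.78). The others were Lama4 in spinous keratinocytes (0.74), Lama5 in fibroblasts (0.71) and Itgb5 in sebaceous gland (0.59). The ratios of Lama2 changed sign under other definitions, to -0.15 in synovial lining with classes from per-cell markers and to -0.54 in basal keratinocytes with doublets removed. Over the definitions Lama4 in spinous keratinocytes ran from 0.11 to 1.36. Levels were low for Lama4 in spinous keratinocytes (1.21 against 0.724 CPM) and for Lama5 (2.98 against 1.82) and Itga4 (5.07 against 2.94) in fibroblasts. In basal keratinocytes Itga1 and Lama2 were low too, at 11.4 against 6.67 CPM and 6.48 against 3.74 CPM. The summed vascular smooth muscle markers there were 121 against 59.6 CPM and the fibroblast markers 173 against 152.5 CPM, and their part in the result was not tested.

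Lower in SAR131675 were Itga5 (log2 ratio -1.62) and Itgb1 (-0.70) in monocytes, where the libraries had 65 and 40 cells. Both values are the far end of the range over the definitions, the near end being -0.28 for Itga5 and -0.09 for Itgb1. In these monocytes the summed vascular smooth muscle markers were at 3442 CPM in SAR131675 and 9155 in control diet, the pericyte markers at 545 and 1195, and the laminin genes together at 144 and 388. The dendritic cell markers were at 70.8 and 143 CPM and the basal keratinocyte markers at 755 and 373 CPM, and the part of these in the result was not tested. Also lower were Lamc1 in tendon cells (-1.07) and the osteoblast lineage (-0.74) and Lama3 in inner root sheath (-1.01). Lamb2 was lower in the osteoblast lineage (-0.96), infundibulum (-0.70) and outer follicle (-0.62), and Itga8 (-0.88) and Lamc3 (-0.64) in nail or papilla mesenchyme. The tendon class held 38 and 56 cells, with its markers Thbs4 at 990 against 2308 CPM, Fmod at 1529 against 2754 and Tnmd at 871 against 816. In the osteoblast lineage Dmp1 was at 171 against 90.8 CPM, Phex at 81.2 against 37.8 and Alpl at 896.5 against 1047. The part of these markers in the result was not tested. The rest were Itgb4 (-0.70) and Itga7 (-0.64) in fibroblasts, Itga8 (-0.65) and Lamb1 (-0.62) in synovial lining, Itgam in neutrophils (-0.59) and Itga6 in granular keratinocytes (-0.59). Itga7 was low in fibroblasts, at 3.02 against 4.71 CPM. Among the 12 fibroblast subclusters, 1 of 122 cells held the most Itgb4 (546.5 CPM) and the most Itga7 (135 CPM), its part in these results was not tested, and with classes from per-cell markers both ratios changed sign (0.16 and 0.13). The ratio of Itga6 in granular keratinocytes also changed sign (0.47) when the upper limits for a cell were dropped, and that of Itga8 in nail or papilla mesenchyme was -0.19 where it lay nearest to 0.

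Genes that work with integrins and laminins were given by count over the same classes. Of 95 tested pairs of basement membrane genes, such as collagen IV and nidogen, 8 were higher and 3 lower (11.6%), beside the 5.04% over all genes. Hemidesmosome and laminin receptor genes had 4 higher and 4 lower of 106 (7.55%), and integrin activators and linkers, such as talin and kindlin, 4 higher and 7 lower of 199 (5.53%). Other integrin ligands had 19 higher and 9 lower of 89 (31.5%). Among these genes, Spp1 (osteopontin, an alphav ligand) was at 13470 against 5587 CPM in the osteoblast lineage, its leading class, and at 6657 against 2797 CPM in chondrocytes. It was named after its values were seen, and none of the 9 lower pairs is named.

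The second comparison asked what removal of the lymph nodes changed. Of 183 gene and class pairs tested, 2 were past the limit, both higher in LNR, which is 1.09%, against 2.56% of the 96512 pairs over all genes (1.38% higher, 1.18% lower). With all kept cells as 1 class, 1 of 34 genes was past it (Lamc3, at 6.29 against 4.02 CPM, named after its value was seen), against 2.31% of all genes. The 2 pairs lay in nail or papilla mesenchyme: Lama2 at 167 against 56.1 CPM (77 and 25 UMIs, log2 ratio 1.57, 0.91 to 2.29) and Itgb5 at 160 against 103 CPM (74 and 46 UMIs, log2 ratio 0.64, 0.09 to 1.2). Lama2 could be tested under 4 of the 7 other definitions and was past the limit the same way in 2, with log2 ratios from 0.29 to 1.58, and Itgb5 under 3 and in all 3. The summed tendon cell markers in this class were at 3689 CPM in LNR and 1809 in sham, while of its own markers Corin was at 30.3 against 119 CPM, Wif1 at 1545 against 989 and Crabp1 at 752 against 437, and their part in the result was not tested. Of the partner genes, 0 of 71 pairs of basement membrane genes were past the limit, 0 higher and 3 lower of 86 for hemidesmosome and laminin receptor genes (3.49%), 0 higher and 1 lower of 131 for activators and linkers (0.763%), and 6 higher and 3 lower of 72 for other integrin ligands (12.5%), beside the 2.56% over all genes.

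This count rests on the naming of clusters. When the leading genes of a cluster were set against other lineages only, the naming first used, the sham-rich cluster described above counted as spinous keratinocytes and 14 of 198 pairs (7.07%) passed the limit, beside 3.52% over all genes. Of these, 3 were higher in LNR and 11 lower, and the 11 were all in spinous keratinocytes. The share over all genes in that class alone was not counted under this naming. Under the present naming 0 of 13 tested genes passed it in spinous keratinocytes, against 0.923% of all genes there.

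Levels differed more between the experiments than within them. The genes together made up 1674 and 1739 CPM in the diet libraries and 1022 and 957 CPM in the surgery libraries. The headers of the diet files name Cell Ranger 8.0.1 and those of the surgery files 6.1.2, and libraries, software and animals cannot be told apart.

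The gap varied with gene span, with exceptions such as Lamb3 (136 kb) at 1.2-fold in basal keratinocytes and Itga1 (149 kb) at 1.02-fold in blood endothelium. In fibroblasts Lama2, spanning 640 kb in the GENCODE vM21 annotation (build GRCm38), was at 874 CPM in the diet experiment and 180 in the surgery experiment, 4.87-fold apart. Lamb2, spanning 10.8 kb, went the other way, at 142 and 242 CPM. In basal keratinocytes Lama3, spanning 249 kb, was 7.54-fold apart. Over the 10250 genes measured in fibroblasts, Spearman's rho between the log2 ratio and the span was 0.72, and over the 21 integrin and laminin genes 0.52. Over all genes it was 0.70 in basal keratinocytes and 0.74 in blood endothelium, and over 18 and 12 integrin and laminin genes 0.40 and 0.32, all given as a description across genes that are not independent.

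**Figure D5:**
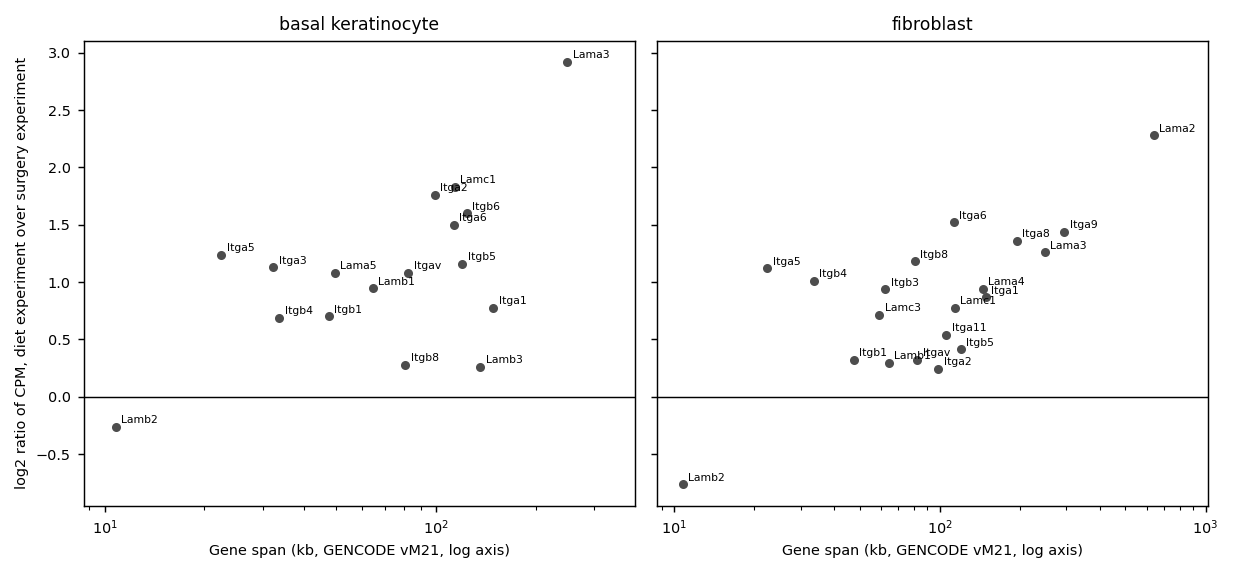
Log2 ratio of CPM between the diet and the surgery experiment against gene span in kb (log axis), for 17 genes in basal keratinocytes (left) and 20 in fibroblasts (right). Short Lamb2 lies below 0 in both panels, and long Lama3 and Lama2 lie at 2.92 and 2.28.

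A few values stood apart between the experiments within 1 class and were picked after they were seen. Lamb3 was at 143 and 259 CPM in neutrophils of the diet experiment, as above, and 14.1 and 13.5 CPM in the surgery experiment. Itga7 had 0 and 1 UMIs in blood endothelium of the diet experiment but 30 and 46 UMIs (14.8 and 21.0 CPM) in the surgery experiment.

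The genes most like each member across the 100 class and library values are given as a description; the points share libraries and classes. Itgb2 was closest to Il10ra (Pearson r 0.96), Itgam to Lrrc25 (0.94), Lama4 to Nr2f2 (0.89), Lama2 to Mmp16 (0.91), Itga11 to Omd (0.895) and Itgb1 to Rsu1 (0.925). Among members, Itga6 was closest to Itgb4 (0.77), Itgb2 to Itgam (0.90) and Itga1 to Itgb1 (0.80). Itga3 (Bcam, 0.66), Itgb8 (Nrbp2, 0.67) and Itga2 (Ppp2r2c, 0.69) had weaker partners.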

How the data were processed

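Single-cell RNA was measured in 4 libraries, 1 per condition. The authors deposited UMI counts per gene and barcode. The processing notes in the labels name Cell Ranger 6.1.2 and GRCm39 for all libraries, the headers of the diet files name Cell Ranger 8.0.1, and whether introns were counted is not given in the sources used here. The deposited counts held 21669 to 38464 barcodes and 168507188 to 585284877 UMIs per library.

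Cells with 200 to 5500 genes, at most 30000 UMIs and at most 10% mitochondrial UMIs were kept, limits that the methods of the study state for the surgery experiment. Over the gene limit lay 15.1% of SAR131675 and 12.9% of control diet barcodes, but only 1.36% of LNR and 1.24% of sham barcodes. Scrublet called 0.907% to 7.41% of cells as doublets, below the 15.9% to 23.3% expected from cell numbers and unequally in SAR131675 (4.67%) and control diet (0.907%). They were kept, and removing them was an alternative that leaves doublets in. Cells were clustered per experiment with scanpy 1.11.5 (2000 variable genes without the integrin, laminin and partner genes, 30 components, 20 neighbours, Leiden resolution 0.7, then 0.5 within clusters of at least 200 cells). Of 418 clusters, 247 were named from marker lists and 106 stayed unnamed because genes of another class led them. UMIs were summed per class and library and given as CPM with exact Poisson intervals. Ratios had exact conditional 95% intervals, and the limit was 1.5-fold with at least 100 UMIs over both libraries. Named genes were the pairs past this limit and each gene in its leading class. With 1 library per condition no test was made. Intervals cover counting error only. Fibroblast counts for SAR131675 against control diet were simulated with counting error only and changes of at least 2-fold. Of these, 195 of 200 changed genes were recovered and 32 of 12475 unchanged genes were called. The simulation held no difference between libraries or in class mix and no small class, so it gives no rate of false calls for the comparisons.

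The genes and lists were chosen with earlier results of these data known. The form of the cluster score was changed after the leading genes of clusters were seen, the minimum of 30 cells was set after class sizes were seen, and the naming rule was made stricter after comparison values were seen. Of the 34 genes with at least 500 UMIs, 1 is not reported here and is not drawn, though it stays in the counts over all of them.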

Additional observations from a re-analysis of the deposited data

How the results depend on the processing

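These results changed with depth and the drawing of classes, and some classes held few cells, which was not varied. The number of genes with a class at least 2-fold above every other was 5 as reported, 3 after thinning, and between 5 and 6 when 1 library was left out. The number with 1 leading class in every library was 22, and between 23 and 25 when 1 library was left out. The leading class by mean was the same for 29 of 36 genes with libraries clustered alone, with per-cell markers and without upper limits, 30 with doublets removed and 33 at resolution 1.2. For SAR131675 against control diet, 32 of 300 pairs became 65 of 308 with each library clustered alone (8.63% of all genes), 69 of 475 with at least 20 UMIs (7.17%), 90 of 832 with no minimum (5.13%), 6 of 300 at a 2-fold limit (0.865%) and 0 of 34 with all kept cells as 1 class (4.95%). Those were the alternatives that moved the count by over 1.5 times.

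For LNR against sham, with the share of all genes likewise in parentheses, 2 of 183 pairs became 1 of 186 at resolution 1.2 (2.55%), 1 of 183 at a 2-fold limit (0.613%), 1 of 34 with all kept cells as 1 class (2.31%), 4 of 181 with doublets removed (2.58%), 14 of 202 with classes from per-cell markers (3.35%), 17 of 182 with each library clustered alone (5.32%), 17 of 362 with at least 20 UMIs (4.62%) and 33 of 766 with no minimum (3.2%). It became 14 of 198 with the naming first used (3.52%), an alternative added after seeing the data, which gave 31 of 319 pairs for SAR131675 (5.01%). Neither of the 2 pairs was among those counted with libraries clustered alone, per-cell markers, doublets removed, no upper limits or all kept cells as 1 class. Under the naming first used, 11 of the 14 were in spinous keratinocytes, without a count over all genes in that class. The cause of the shifts was not tested. Subunit combinations above 20% in all libraries numbered 1, 11 without thinning and 0 with at least 2 UMIs of each subunit.

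The log2 ratio of SAR131675 over control diet changed sign for Lama2 in basal keratinocytes (-0.38 with libraries clustered alone, -0.54 with doublets removed). With classes from per-cell markers it changed sign for Itga7 (0.13) and Itgb4 (0.16) in fibroblasts and Lama2 in synovial lining (-0.15), and without upper limits for Itga6 in granular keratinocytes (0.47). Of the log2 ratios listed over the settings, 287 stayed within the interval first reported, 32 moved outside it with the same sign and 6 changed sign. The 287 include those under the other UMI minimums and the 2-fold limit. These settings leave the ratio itself unchanged, so it could not move there, and the 287 are no measure of stability. Of the 32 pairs for SAR131675, 22 were still past the limit at resolution 1.2, 21 with libraries clustered alone, 15 with per-cell markers, 14 without upper limits, 16 with doublets removed, 28 with the naming first used and 29 with size factors. No paired analysis was possible because each condition was 1 library.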
